A study of Mus musculus with 42 samples.

Results

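T, Eomes, Mixl1, Evx1, Gsc, Mesp1 and Lhx1 are genes for transcription factors of the primitive streak, and Evx1os is a noncoding RNA gene antisense to Evx1. These 8 genes were chosen by name, and 7 of them were measured among the 14296 genes of the series; Mesp1 was not analysed here. Poly-A RNA was sequenced from W9.5 mouse embryonic stem cells of the 129X1/SvJ strain, for which no transgene is named. Differentiation followed the withdrawal of LIF, the cytokine that maintains self-renewal. The cells differentiated without direction into embryoid bodies and were sampled at 21 time points from 0 h to 120 h, every 6 h. Replicates A and B, described as biological duplicates, gave 1 library each at every time point, so that 42 libraries were compared. The embryoid bodies derive from 1 cell line and hold mixed cell types, and in such bulk samples fewer cells of a type and less RNA per cell cannot be told apart.

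The primitive streak is the structure through which epiblast cells leave the epithelium during gastrulation to form mesoderm and definitive endoderm. Wnt, Nodal and BMP signals at the posterior epiblast switch on T, Eomes and Mixl1, while Evx1 marks the posterior streak and Gsc and Lhx1 the anterior streak and the node. In embryoid bodies the same factors are used as markers of the passage from epiblast-like cells to mesendoderm.

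T lies at chr17:8434423-8442496 on the plus strand of GRCm38, Eomes at chr9:118478212-118486132 (plus), Mixl1 at chr1:180693043-180697034 (minus), Gsc at chr12:104471209-104473330 (minus) and Lhx1 at chr11:84518284-84525535 (minus). Their identifiers are ENSMUSG00000062327.4, ENSMUSG00000032446.8, ENSMUSG00000026497.7, ENSMUSG00000021095.4 and ENSMUSG00000018698.9. Evx1 (ENSMUSG00000005503.8) occupies chr6:52313498-52318378 on the plus strand. Evx1os (ENSMUSG00000086126.1) occupies chr6:52308389-52314832 on the minus strand, so that its start lies 1334 bases downstream of the start of Evx1 and inside that gene. The exons of the pair share 73 bases, of 2877 in Evx1 and 3017 in Evx1os. The library kit kept the strand, but the strand setting of the counting is not given in the sources used here, and without it reads from the shared bases could count for either gene.

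Promoter sequences were available for 6 of the 7 measured genes (RefSeq, GRCm38.p6). The 250 bases upstream of T, Evx1 and Evx1os are shown because T was the member that passed the threshold on both the third and the fourth day and because the antisense pair moved together at 6 h and again after 48 h. The capitals in the T sequence mark the only match to any of the searched letters among the 6 windows, which is the reverse complement of a TCF and LEF motif, the motif of the nuclear mediators of Wnt signalling. The T window is chr17:8434173-8434422 (plus), the Evx1 window chr6:52313248-52313497 (plus) and the Evx1os window chr6:52314833-52315082 (minus), the last lying inside the Evx1 gene and outside its exons.
T: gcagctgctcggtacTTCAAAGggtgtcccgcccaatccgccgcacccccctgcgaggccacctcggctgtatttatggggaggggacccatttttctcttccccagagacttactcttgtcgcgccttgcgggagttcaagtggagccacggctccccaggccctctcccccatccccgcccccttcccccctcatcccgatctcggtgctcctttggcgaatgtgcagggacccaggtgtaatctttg
Evx1: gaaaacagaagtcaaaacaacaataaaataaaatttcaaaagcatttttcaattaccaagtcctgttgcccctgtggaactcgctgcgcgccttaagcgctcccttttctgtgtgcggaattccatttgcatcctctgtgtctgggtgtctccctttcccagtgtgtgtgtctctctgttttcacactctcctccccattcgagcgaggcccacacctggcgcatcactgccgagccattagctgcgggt
Evx1os: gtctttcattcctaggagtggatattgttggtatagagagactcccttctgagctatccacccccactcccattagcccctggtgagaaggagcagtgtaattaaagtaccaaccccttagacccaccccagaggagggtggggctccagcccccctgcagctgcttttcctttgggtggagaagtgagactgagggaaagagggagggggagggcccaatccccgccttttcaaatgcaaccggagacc

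The match in the T window lies 235 bases before the start. The letters searched on both strands were CTTTGAA or CTTTGAT or CTTTGTA or CTTTGTT for TCF and LEF, AGGTGTGA for a T-box motif, AATCCACA or AATACACA for FOXH1, GTCTAGAC for SMAD, TAATCC for goosecoid-type homeodomains and CATATG for an E-box, and the goosecoid and FOXH1 letters can overlap. Among 32817 promoters of the same length, 14.8% held a TCF and LEF match, 1.12% a T-box motif, 1.61% FOXH1, 0.168% SMAD, 6.25% the goosecoid type and 3.47% the E-box. A match is a description of the letters and not a measured binding site.

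Depth and the agreement of the duplicates set the limits of these values. The libraries held a median of 29692083 counted reads, from 10120972 to 51652434, so that 3 reads corresponded to between 0.0571 and 0.316 CPM, the reads scaled to a common library size. Values are given as log2 CPM with an offset of 0.5 reads. On this scale members with 0 reads in the libraries from 0 h to 48 h stood between -6.05 and -4.25, depending on the depth. The library of 96 h replicate B stood apart for these genes. At 96 h all 7 genes were higher in replicate B than in replicate A by more than 1.5 on the log2 scale, from 1.54 for Gsc to 3.07 for Mixl1 with a median of 2.22. Of all 14296 genes, 5.42% were higher in replicate B by more than 1 and 2.22% by more than 1.5 at this time point. All 7 genes were also higher in replicate B at 90 h, 108 h and 114 h, by medians of 0.73, 0.63 and 0.93, whereas at 102 h the median difference was -0.04, at 72 h 5 of 7 were lower in replicate B (median -0.74) and at 120 h 6 of 7 (median -0.31). With 1 library for each replicate and time point the difference at 96 h has no replicate of its own and was not tested. Results that use 96 h are therefore given with and without this library.

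**Figure D1:**
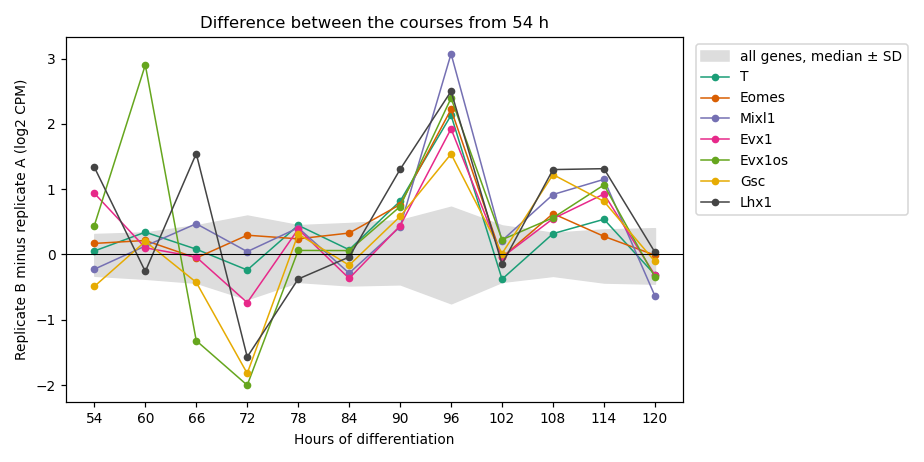
Difference between the duplicates (log2 CPM of replicate B minus replicate A, vertical axis) for each gene from 54 h to 120 h (horizontal axis); the grey band is the median of all genes with 1 SD of all genes on either side. At 96 h the 7 genes lie between 1.54 and 3.07, all above the band, and at 102 h they lie between -0.38 and 0.23.

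Many genes of some other groups were also higher in that library. Of 20 measured signals of the streak (Wnt, Nodal, BMP and FGF pathway genes), 12 were higher in replicate B at 96 h by more than 1, as were 10 of 16 transcription factors of nascent mesoderm and 5 of 9 genes of endoderm and node. In replicates A and B the signals summed to 867 and 1782 CPM and the mesoderm factors to 99.7 and 220 CPM. The endoderm and node genes summed to 152 CPM in A and a lower 130 CPM in B, where the differences of Otx2 and Chrd were -0.87 and -0.64. Cdx2 and Hand1, both higher by more than 1, stand on the mesoderm and the trophoblast list. Of 6 trophoblast markers 4 were higher by more than 1, and their summed level was 56.6 CPM in replicate A and 126 CPM in replicate B, where the sums ran from 5.75 to 23.2 CPM over the libraries from 0 h to 48 h and 28.6 to 157 CPM over the other libraries from 84 h. Visceral endoderm markers had 1 of 7 higher and 2 of 7 lower by more than 1 (median difference -0.10) and summed to 22.4 CPM in replicate A and 20.8 CPM in replicate B. Of the remaining markers, 1 of 10 of pluripotent epiblast, 1 of 7 of neural precursors and 2 of 6 of cardiac and blood vessel progenitors were higher by more than 1, and 1 of 7 neural markers was lower by more than 1 (median difference of that list -0.53). Of further T-box genes 1 of 5, and of homeobox relatives 1 of 7, were higher by more than 1. Elf5, Plac1, Tpbpa and Prl3d1 of the trophoblast list and Ttr, Afp and Apoa1 of the visceral endoderm list were not analysed here. The part of these cell types in the levels of the 7 genes was not tested.

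Over the course, T went from near the detection limit to the highest level per length of the 7 genes, Eomes was present from the start, and Mixl1, Gsc and Lhx1 had low levels or few reads until the third day, as had Evx1 and Evx1os apart from the first 12 h. Between 48 h and 102 h all 7 genes were higher in both replicates. Evx1os, Gsc and Lhx1 were below 1 CPM in every library up to 78 h, and T in every library up to 48 h, so these genes passed the filter of the authors (above 1 CPM in 2 or more samples) only through later libraries. Their higher level at 102 h was therefore in part set by the filter, and counts of members that rose after 48 h are given as a description. This span was chosen after the values were seen, because the duplicates at 102 h lay close together. T, Evx1 and Evx1os rose past the threshold of adjusted p < 0.0001 (limma with Benjamini-Hochberg adjustment over all genes), which 14.3% of all genes also passed upward. At adjusted p < 0.05 all 7 passed, against 29.6% of all genes. The gap between the duplicates at 96 h widened the pooled spread of T, Eomes and Mixl1. Without 96 h replicate B their SE was 0.35, 0.18 and 0.35. Leaving out either library of that pair takes its gap out of the spread. A lower adjusted p under such a fit is therefore no separate support.

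**Figure D2:**
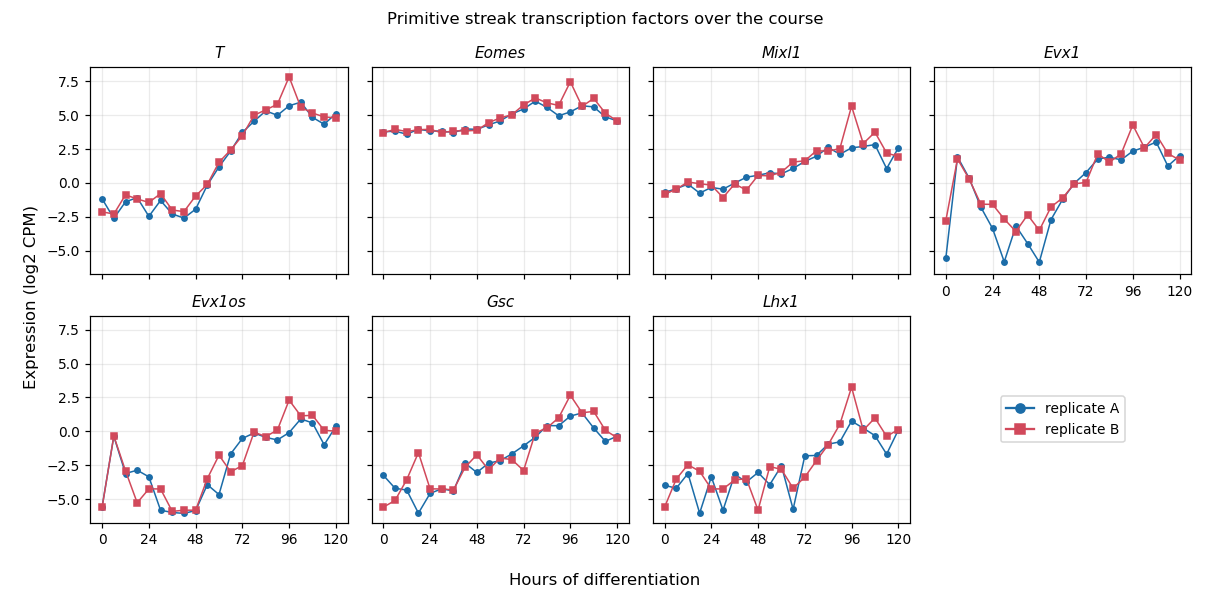
Expression of the 7 measured genes (log2 CPM, vertical axis) at 21 time points (hours, horizontal axis), with circles for replicate A and squares for replicate B, 1 library each. T starts between -2.61 and -0.79 in the first 48 h and reaches 5.96 in replicate A and 7.83 in replicate B, and Evx1 shows a separate peak at 6 h.

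The T-box members T and Eomes started from different levels. T, or Brachyury, is required for posterior mesoderm and the notochord. Its log2 CPM over the 18 libraries from 0 h to 48 h had a median of -1.69, from -2.61 to -0.79, on 3 to 22 reads. At 48 h replicate A stood at -1.93 and replicate B at -0.96, on 7 and 14 reads. The level in both replicates was then higher at every step up to 84 h, with values of -0.16 and -0.11 at 54 h, 1.19 and 1.53 at 60 h, 2.36 and 2.44 at 66 h, 3.73 and 3.49 at 72 h, 4.55 and 5.0 at 78 h, and 5.32 and 5.39 at 84 h. The duplicates differed by at most 0.45 at each of these time points. At 96 h they parted, with 5.69 in replicate A and 7.83 in replicate B, and the later values were 5.96 and 5.58 at 102 h, 4.84 and 5.16 at 108 h, 4.33 and 4.87 at 114 h and 5.12 and 4.81 at 120 h.

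T rose by 5.06 on the log2 scale from 48 h to 72 h (SE 0.45, limma adjusted p = 2.7e-09), a read ratio of 33.6 with a 95% counting interval of 21.8 to 54.6. With precision weights from the recovered reads this change was 5.07 at adjusted p = 0.001 in limma, above the threshold. From 72 h to 96 h T rose by 3.15 (SE 0.45, limma adjusted p = 1.1e-05). That call did not survive the loss of 96 h replicate B, without which the change was 2.08 (adjusted p = 0.0009), nor the loss of 72 h replicate A (adjusted p = 0.00011) or replicate B (adjusted p = 0.00065). From 72 h to 102 h the change was 2.16 at adjusted p = 0.00053 with all libraries and 2.4e-05 without 96 h replicate B, both by limma.

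Eomes, needed for definitive endoderm and for mesoderm to leave the streak, had a flat level in the first 2 days. Over the 18 libraries from 0 h to 48 h its log2 CPM had a median of 3.84, from 3.60 to 3.99, on 123 to 573 reads. This range of 18 libraries was narrower than that of any other member. From 54 h the values left it, with 4.28 and 4.45 at 54 h (A and B), 4.58 and 4.80 at 60 h, 5.09 and 5.04 at 66 h, 5.46 and 5.75 at 72 h and 6.04 and 6.28 at 78 h. Eomes then showed a crest and a dip in both courses, at 5.58 and 5.91 at 84 h and 4.96 and 5.72 at 90 h. The 96 h libraries were at 5.24 and 7.47, and the last were at 4.58 and 4.57 at 120 h. In replicate A 78 h was the highest time point of the whole course, and in replicate B it was the highest apart from 96 h.

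The change of Eomes from 48 h to 72 h was 1.69 (SE 0.35), with limma adjusted p = 0.00044, and both replicates were higher by 1.5 and 1.87. Without 96 h replicate B the SE was 0.18 and Eomes passed the threshold at limma adjusted p = 4.9e-08, and without 96 h replicate A it did so at 4.8e-08. With scaling by library size alone it was 1.83 and also passed, at limma adjusted p = 9.6e-05. From 72 h to 96 h the estimate was 0.75 (limma adjusted p = 0.11) with the replicates in opposite directions, at -0.21 in A and 1.71 in B, and without 96 h replicate B it turned to -0.36. The level at 120 h was below that at 102 h by 1.11 in replicate A and 1.08 in replicate B, at limma adjusted p = 0.037 and, without 96 h replicate B, 0.00011.

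Mixl1, a paired-type homeobox gene of the streak that is a target of Nodal signalling, was low and detected in every library. From 0 h to 48 h it had a median log2 CPM of -0.24, from -1.08 to 0.57, on 4 to 44 reads. It was at 0.57 and 0.56 at 48 h, 1.59 and 1.64 at 72 h, 2.63 and 2.34 at 84 h and 2.69 and 2.91 at 102 h in replicates A and B. At 96 h Mixl1 showed the widest gap of the 7 genes, with 208 reads (2.59) in replicate A and 1339 reads (5.66) in replicate B. The duplicates were also apart at 108 h, at 2.83 and 3.75, and at 114 h, at 1.06 and 2.21. From 48 h to 102 h Mixl1 was higher by 2.24 (SE 0.54, limma adjusted p = 0.00092), and without 96 h replicate B the SE was 0.35 and it passed the threshold at adjusted p = 3.9e-06 in limma. From 72 h to 96 h it was higher by 2.51 (limma adjusted p = 0.0011) and, without 96 h replicate B, by 0.98 (adjusted p = 0.094).

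Gsc and Lhx1, both homeobox genes of the anterior streak and node, were near the floor until the third day. Gsc had at most 8 reads in any library up to 54 h and 0 reads in 4 of them up to 48 h. Replicate A stood at -1.07 and replicate B at -2.89 at 72 h, on 17 and 3 reads, at 0.43 and 0.26 at 84 h and at 1.36 and 1.37 at 102 h, on 79 and 47 reads. By 120 h it was at -0.36 and -0.47, below every value from 84 h to 102 h. Its change from 48 h to 102 h was 3.75 (SE 0.91, limma adjusted p = 0.00092), a read ratio of 13.2 with a 95% counting interval of 7.14 to 27.1. Over the fourth day Gsc was higher in both replicates, by 2.19 in A and 5.55 in B (limma adjusted p = 0.0023), and without 96 h replicate B the adjusted p was 0.041.

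Lhx1, a LIM homeobox gene required for head formation, had at most 7 reads in any library up to 66 h. It was at -1.80 and -3.37 at 72 h (10 and 2 reads in A and B), -0.95 and -0.98 at 84 h, and -0.77 and 0.53 at 90 h. At 96 h it was at 0.76 and 3.26, on 58 and 252 reads, and at 102 h at 0.24 and 0.09. Unlike Gsc, it was near its 102 h level at 120 h, at 0.10 and 0.13. The change of Lhx1 from 48 h to 102 h was 4.59 (SE 0.99, limma adjusted p = 0.00026) on 3 and 55 reads, a ratio of 21.1 with a 95% counting interval of 6.87 to 106. The difference between Gsc and Lhx1 in the last day was not tested.

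Evx1, an even-skipped homeobox gene of the posterior streak, was expressed in 2 separate windows. At 0 h it had 0 reads in replicate A and 3 in replicate B. At 6 h it had 104 and 58 reads, or 3.78 and 3.38 CPM. It had 38 and 50 reads at 12 h (1.26 and 1.21 CPM), 9 and 6 at 18 h, and 3 and 9 at 24 h. Both replicates thus showed a peak at 6 h whose level lay inside the range of the late window, which ran from 2.35 to 11.9 CPM over the 13 libraries from 84 h to 120 h other than 96 h replicate B, with a median of 4.40 CPM.

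Evx1os followed the same early course at a lower level. It had 0 reads in both libraries at 0 h, 21 and 13 reads at 6 h (0.762 and 0.759 CPM), 3 and 5 reads at 12 h, and 0 reads in all 8 libraries from 30 h to 48 h. In these libraries a count of 0 allowed a level of at most 0.0904 to 0.316 CPM, depending on the depth. No other member passed the threshold between 0 h and 6 h.

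From 0 h to 6 h Evx1 rose by 6.02 on the log2 scale (SE 0.87, limma adjusted p = 1.5e-06), which as reads was a ratio of 57.7 with a 95% counting interval of 19.4 to 283. Evx1os rose by 5.23 (SE 0.86, limma adjusted p = 1e-05) and was at least 12.1-fold higher, taking 3 reads over the 2 libraries as the limit at 0 h. These were 2 of 7 members, against 11.8% of all genes that passed upward over the same 6 h. With precision weights neither passed (limma adjusted p = 0.0013 for Evx1 and 0.0011 for Evx1os). Without 0 h replicate A, Evx1 was at adjusted p = 0.00032, and without any 1 of the 4 libraries Evx1os was at 0.00024 to 0.00027, also by limma.

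From 6 h to 24 h Evx1 was lower by 4.32 on the log2 scale (SE 0.87, limma adjusted p = 0.00026) and Evx1os by 3.45 (SE 0.86, limma adjusted p = 0.0023), both lower in both replicates. At the threshold of 0.0001 0 of 7 members fell, against 5.76% of all genes, and 2 of 7 had an unadjusted p below 0.05 in limma. With the replicate block Evx1 fell past the threshold (limma adjusted p = 3.4e-05). The libraries at 0 h together held 3 reads of Evx1 and those at 24 h held 12, whereas those at 6 h held 162. Among all 140 pairs of a member and a 6 h step, the changes of Evx1 and Evx1os from 0 h to 6 h were the 2 that passed the threshold.

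**Figure D3:**
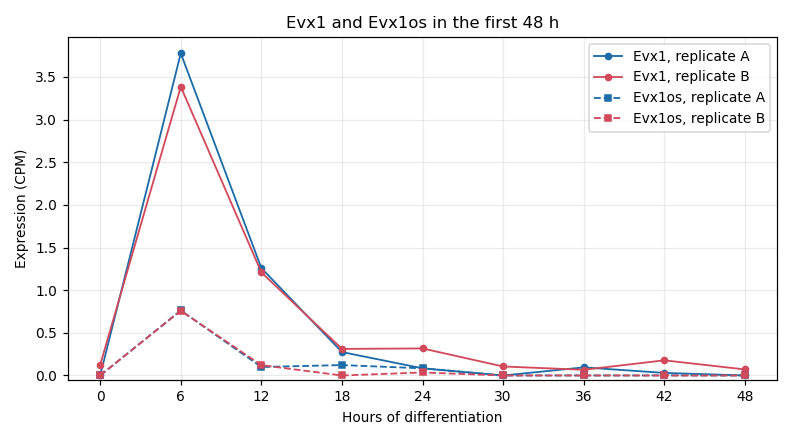
Expression of Evx1 (circles, solid lines) and Evx1os (squares, dashed lines) in CPM (vertical axis) over the first 48 h (horizontal axis), with replicate A in blue and replicate B in red. Both genes peak at 6 h in both replicates, Evx1 at 3.78 and 3.38 CPM and Evx1os at 0.762 and 0.759 CPM.

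The second window of the pair opened after 48 h. Evx1 had 0 and 2 reads at 48 h, 3 and 11 at 54 h, 16 and 24 at 60 h, 26 and 26 at 66 h and 62 and 26 at 72 h. Evx1os had 0 and 0 reads at 48 h, 1 and 3 at 54 h, 1 and 15 at 60 h, 8 and 3 at 66 h, and 25 and 4 at 72 h. Evx1 rose by 5.07 from 48 h to 72 h (SE 0.87, limma adjusted p = 4.6e-05), a ratio of 40.0 with a 95% counting interval of 10.7 to 335. This call was lost without 48 h replicate A (adjusted p = 0.0049), 72 h replicate A (0.0015) or 72 h replicate B (0.0004), and with precision weights (0.0096), all in limma. Evx1os was higher by 4.31 (limma adjusted p = 0.00028), or at least 8.79-fold, and from 48 h to 102 h it rose by 6.86 (limma adjusted p = 1.6e-07), or at least 37.7-fold.

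At their late maximum in replicate A, Evx1 was at 3.02 log2 CPM at 108 h and Evx1os at 0.92 at 102 h. In replicate B the highest values were 4.27 and 2.30 at 96 h, and the next highest 3.57 and 1.18 at 108 h. Evx1os took 17.3% of the reads of the pair at 6 h, on 34 reads against 162 of Evx1 over 2 libraries, and 19.4% at 72 h and later, from 13.3% to 28.7% over 18 libraries. The 95% exact binomial interval at 6 h ran from 10.7% to 24.5% in replicate A and from 10.1% to 29.3% in replicate B. The late share lay inside both intervals, which cover counting error only. At 12 h the share was 7.32% in replicate A and 9.09% in replicate B, on 3 and 5 reads of Evx1os.

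Per length of transcript, on the scale of CPM per kilobase of exon, Eomes had the highest mean of the 7 at every time point from 0 h to 78 h and again at 108 h, and T at the other time points from 84 h. At 0 h Eomes was at 3.22 ± 0.10 (SD, n = 2), Mixl1 at 0.247 ± 0.016 and T at 0.136 ± 0.066. At 6 h Evx1, at 1.24 ± 0.10, stood next to Eomes and above Mixl1 at 0.311 ± 0.008. At 72 h the order was Eomes (11.8 ± 1.7), T (5.29 ± 0.62), Mixl1 (1.33 ± 0.03), Evx1 (0.468 ± 0.169), Gsc (0.229 ± 0.194), Evx1os (0.139 ± 0.124) and Lhx1 (0.0430 ± 0.0340), and the duplicates of each neighbouring pair among the last 4 overlapped. At 84 h T was at 17.2 and 18.1 in the replicates and Eomes at 11.5 and 14.4, without overlap, whereas at 108 h they overlapped, with T at 12.4 and 15.4 and Eomes at 11.8 and 18.1. At 102 h the order was T (23.8 ± 4.4), Eomes (12.3 ± 0.3), Mixl1 (3.04 ± 0.31), Evx1 (2.12 ± 0.05), Gsc (2.02 ± 0.01), Evx1os (0.672 ± 0.073) and Lhx1 (0.270 ± 0.022). The lowest replicate of each gene stood above the highest of the next gene at 102 h, although Evx1, at 2.09 and 2.16, and Gsc, at 2.01 and 2.02, were close.

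In the comparisons of whole days, members passed the threshold upward on the third and the fourth day only. The rise of Evx1 and Evx1os to 6 h lay within the first day and was followed by lower levels at 24 h. From 0 h to 24 h 0 of 7 members passed the threshold upward, against 9.9% of all genes, with 1 member at an unadjusted p below 0.05 in limma. From 24 h to 48 h it was 0 of 7 against 5.27%, with 3 members at an unadjusted p below 0.05, Evx1 and Evx1os lower and Gsc higher. From 48 h to 72 h 2 of 7 (T and Evx1) passed against 5.6% of all genes, and 4 of 7 passed at adjusted p < 0.05 against 21.5%. From 72 h to 96 h 1 of 7 (T) passed against 2.39%, and 6 of 7, all but Eomes, passed at adjusted p < 0.05 against 15.1%. Without 96 h replicate B the changes from 72 h to 96 h ran from -0.36 for Eomes to 3.35 for Lhx1, with T at 2.08. The share of all genes at an unadjusted p below 0.05 is not given here, so counts of members at that level are descriptions.

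From 96 h to 120 h all 7 estimates were below 0, with a median of -1.80 and 6 of 7 lower in both replicates. At 0.0001 0 of 7 fell, against 0.686% of all genes, and 3 of 7 (T, Eomes and Mixl1) passed at adjusted p < 0.05, against 8.28%, with 4 of 7 at an unadjusted p below 0.05 in limma. Without 96 h replicate B the changes of T, Eomes and Mixl1 were -0.73, -0.66 and -0.32, and the estimate for Evx1os turned to 0.28. Without 96 h replicate A those of T, Eomes and Mixl1 were -2.86, -2.89 and -3.40. With 102 h in place of 96 h, an alternative chosen after the values were seen, 0 of 7 rose from 72 h against 4.71% of all genes, with 6 of 7 at an unadjusted p below 0.05 in limma. From 102 h to 120 h 0 of 7 fell against 0.385%, with 1 of 7 at an unadjusted p below 0.05, and all 7 estimates were again below 0. Within this span all 7 genes were lower at 114 h than at 108 h in both replicates, with a median change of -1.36, where 38.7% of all genes were lower in both.

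**Figure D4:**
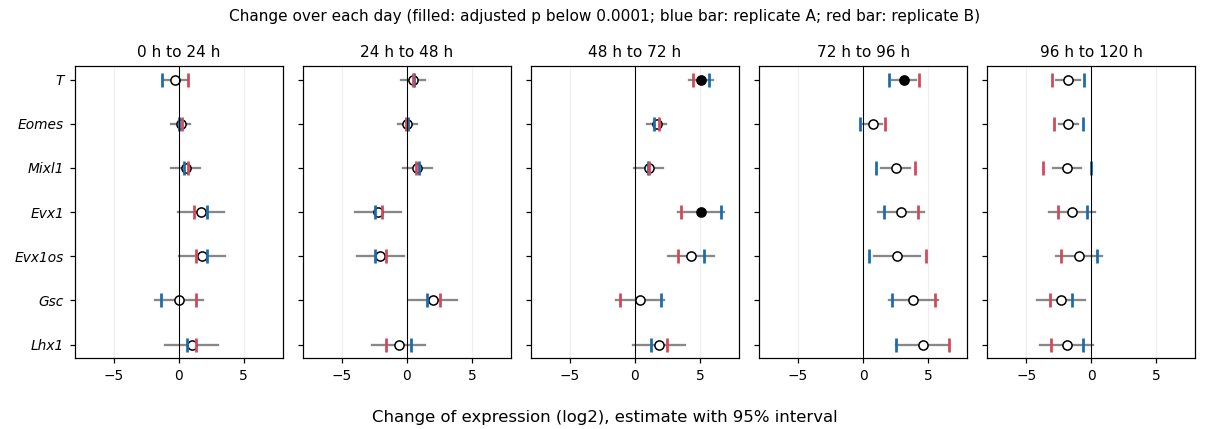
Change of each gene over each of the 5 days (log2, horizontal axis), as the limma estimate (circle, filled where adjusted p is below 0.0001) with its 95% interval (grey line) and the change in replicate A (blue bar) and replicate B (red bar). The filled circles are T and Evx1 from 48 h to 72 h and T from 72 h to 96 h.

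In replicate A the members peaked between 78 h for Eomes and 108 h for Mixl1 and Evx1. The rise time was taken in each course as the last time before the peak at which the CPM rose through 50% of the peak. In replicate A it was 65.2 h for Eomes, 75.6 h for Mixl1, 80.8 h for T, 83.5 h for Gsc, 91.5 h for Lhx1, 92.7 h for Evx1 and 96.1 h for Evx1os. In replicate B all 7 genes peaked at 96 h, and all rise times lay between 91.6 h and 92.6 h. Without the 96 h library, those of replicate B were 67.7 h for Eomes, 76.9 h for T, 85.4 h for Gsc, 87.1 h for Lhx1, 90.7 h for Evx1os, 96.4 h for Mixl1 and 101.5 h for Evx1.

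In both courses, with that library left out and at 50% of the peak, Eomes was first, T came before Gsc, and Gsc before Lhx1, Evx1os and Evx1. Eomes was present from 0 h, and a share of the peak is nearer from a higher starting level. T and Eomes both left their range of 0 h to 48 h at 54 h, so this order does not show which rose first. At other shares of the peak the order after Eomes turned. At 25% in replicate A, Evx1os (68.7 h) and Evx1 (73.2 h) came before Gsc (76.1 h), and at 75% Lhx1 (93.7 h) and Gsc (94.2 h) came before T (94.5 h). The place of Mixl1 differed between the courses, at 75.6 h and 96.4 h. With 2 courses the order has no test.

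**Figure D5:**
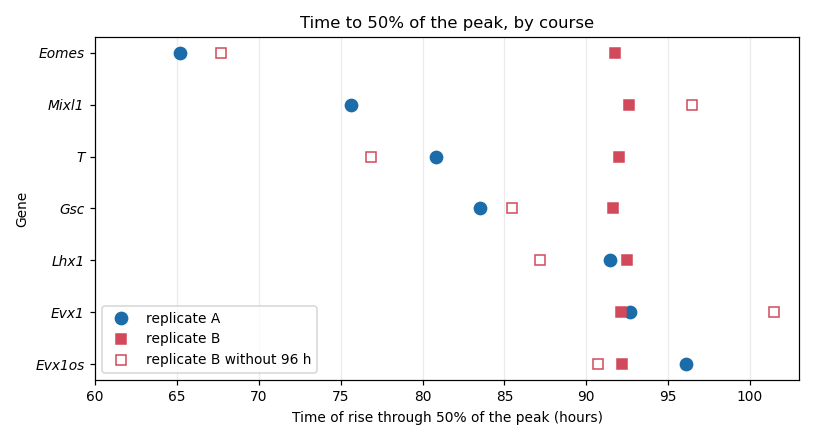
Time at which each gene rose through 50% of its peak CPM (hours, horizontal axis), for replicate A (circles), replicate B (filled squares) and replicate B without its 96 h library (open squares). The filled squares lie between 91.6 h and 92.6 h, while the circles run from 65.2 h for Eomes to 96.1 h for Evx1os.

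The members were correlated across libraries. Over the 42 libraries the 21 pairs of members had a Pearson's r of log2 CPM from 0.70 to 0.94, with a median of 0.81, and from 0.66 to 0.93 without 96 h replicate B. The highest value was that of Evx1 with Evx1os (0.94). Over the 18 libraries from 0 h to 48 h r ran from -0.45 to 0.84 with a median of -0.08, and the highest pair was again Evx1 with Evx1os. Over 13 libraries from 84 h on, without 96 h replicate B, r ran from 0.27 to 0.88 with a median of 0.68. The libraries of a course share its cultures and the points share the time axis, and values near the floor hold few reads, so that these are descriptions.

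Among the 10 genes most like the mean of the members over the 42 libraries, out of 13635 that reached 1 log2 CPM at some time point, were Pde10a (r = 0.96), Igfbp3, Agpat3, Rgmb, Commd3, Pcdh7, Ddr1, Adcy2 and Slc30a3 (r = 0.93). Pde10a, a phosphodiesterase gene, is also the nearest measured gene above T on chromosome 17, 82876 bases away. Its mean log2 CPM was -1.77 at the start, -1.72 at 48 h and 3.5 at 102 h. Prr18, the nearest measured gene on the other side of T at 90310 bases, was at -0.58 at 48 h and -0.09 at 102 h. For the single members the likest genes were Rtl8c for T (r = 0.97), Wnt8a for Eomes (0.91), Msx1 for Mixl1 (0.94), Adcy2 for Evx1 (0.91) and Evx1os (0.93), Rtl8b for Gsc (0.92) and Iigp1 for Lhx1 (0.87).

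The nearest measured genes outside the Evx1 pair were not higher at 6 h. Hotairm1, 151379 bases below it, was at -1.19 at 0 h and -1.39 at 6 h, and Hibadh, 227850 bases above it, at 6.74 and 5.90, all in log2 CPM. From 48 h to 102 h Hotairm1 had a change of 2.21 and Hibadh of 0.34, and the nearest genes on both sides of Eomes, Mixl1 and Lhx1 had changes between -0.63 (Lin9, below Mixl1) and 0.43 (Platr11, below Eomes). Beside Gsc, Dicer1 had a change of -0.01 and Ppp4r4, at 857378 bases, a change of 3.20. The neighbours were looked up after the values of the members were known.

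Signals that act at the streak moved in both directions. Of 20 measured of 22 listed, 9 rose and 6 fell from 48 h to 102 h, against 14.3% and 12% of all genes, with a median change of 1.24 against 0.01 over all genes, and the counts were the same without 96 h replicate B. Those that rose were the Wnt ligands Wnt3 (2.54) and Wnt8a (3.65), the Wnt agonist Rspo3 (2.66), the Wnt targets Axin2 (2.31) and Sp5 (8.12), the Wnt inhibitor Frzb (6.27), the FGF ligands Fgf8 (3.56) and Fgf17 (2.32) and Bmp2 (4.47). Those that fell were Lef1 (-3.32), the Nodal co-receptor Tdgf1 (-1.16), the Nodal inhibitors Lefty1 (-2.01) and Lefty2 (-1.40), Gdf3 (-2.03) and Fgf4 (-2.67). All of these are log2 changes past adjusted p < 0.0001 in limma. Sp5, Frzb and Bmp2 started near the floor, at mean log2 CPM values of -4.43, -3.08 and -3.88 at 48 h. The sizes of their changes therefore depend on the offset of 0.5 reads. The means of Sp5, Frzb, Bmp2 and Rspo3 were below 0 log2 CPM at 0 h, 24 h and 48 h. As for the members, their rise can in part be set by the filter of the authors, and the count of 9 is a description.

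By day, 4 of the 20 signals rose and 3 fell from 48 h to 72 h, against 5.6% and 3.78% of all genes. Among the risers Sp5 changed by 5.43 (SE 0.95), Rspo3 by 3.24 (SE 0.41) and Wnt8a by 3.07 (SE 0.31), with limma adjusted p of 5.9e-05, 6.5e-07 and 2.3e-08. The change of Sp5 was 7.05 in replicate A and 3.82 in replicate B. From 72 h to 96 h 3 rose and 1 fell, against 2.39% and 1% of all genes, with Dkk1, a secreted Wnt inhibitor, at 5.49 (SE 0.88, limma adjusted p = 4.3e-05) and Wnt5a at 2.83 (SE 0.43, limma adjusted p = 2.1e-05). Without 96 h replicate B 0 rose and 3 fell over that day. Wnt8a, the gene most like Eomes, had mean log2 CPM values of -2.26, 0.21, 3.28 and 4.44 at 0, 48, 72 and 96 h. In the same unit Dkk1 was near the floor at 72 h, at -3.99. Dkk1 was also below 0 at 0 h, 24 h and 48 h, so its rise can in part be set by the filter of the authors.

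Transcription factors of mesoderm that leaves the streak gave few calls. Of 16 measured of 21 listed, 3 rose (Foxf1 by 5.39, Gata4 by 1.72 and Twist1 by 1.60) and 1 fell (Tal1, by 3.96) from 48 h to 102 h. Against 14.3% and 12% of all genes, these counts were near or below the background. The median change of the list was 1.38, against 0.01 over all genes. Foxf1 and Gata4 are used in lateral and cardiac mesoderm, Twist1 is a bHLH factor of migrating mesoderm and Tal1 a regulator of blood progenitors. The caudal-type gene Cdx4 fell from 48 h to 72 h by 3.5 (SE 0.61, limma adjusted p = 5e-05) and was the only call of this list over that day, against 0 from 72 h to 96 h. Mean log2 CPM was near the floor for Foxf1 at 48 h, at -5.04, and for Cdx4 at 72 h, at -3.99. Foxf1 was also below 0 at 0 h and 24 h, so its rise can in part be set by the filter of the authors. From 48 h to 102 h Snai1, a repressor of E-cadherin at the streak, changed by 2.08 and Sp8 by 1.54, neither past the threshold with all libraries. Without 96 h replicate B more genes of the list rose past the threshold over both spans. The share of all genes under that fit is not given here.

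Of 9 measured genes of endoderm and node among 16 listed, 3 rose from 48 h to 102 h, the BMP inhibitor gene Nog (4.26), Gata6 (3.59) and Fgf17 (2.32), with a median of 0.90, against 14.3% of all genes. Nog and Gata6 started near the floor, at mean log2 CPM values of -3.26 and -3.88 at 48 h. Both were also below 0 at 0 h and 24 h, so their rise can in part be set by the filter of the authors. Fgf17 was the 1 call from 72 h to 96 h (1.61, limma adjusted p = 2.1e-06), against 2.39% of all genes, and without 96 h replicate B there was none. Among 5 measured of 15 further T-box genes, Tbx20 rose from 48 h to 102 h (2.34) with a median of 0.97 over the list, and from 72 h to 96 h Tbx20 rose by 2.22 and Tbx3 by 1.88 (limma adjusted p = 6.3e-05 and 1.5e-05), neither of which passed without 96 h replicate B. That made 1 of 5 against 14.3% of all genes and 2 of 5 against 2.39%. Tbx3, which is expressed in stem cells, had mean log2 CPM values of 7.74, 3.31 and 5.48 at 0, 48 and 96 h. Among 7 measured of 15 relatives of the homeobox members, Otx1 rose from 48 h to 102 h (3.10) with a median of 0.62 over the list, and 0 were called over either of the 2 days. The 1 of 7 equals the share of all genes that rose. Otx1 was below 0 log2 CPM on average at 0 h, 24 h and 48 h, so the filter can in part set its rise too. Without 96 h replicate B more genes of this list and of the T-box list rose past the threshold from 48 h to 102 h. The share of all genes under that fit is not given here. These lists share genes, Fgf17, Otx2 and Mesp2 among them.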

How the data were processed

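RNA sequencing values from 42 libraries (21 time points, replicates A and B) were re-analysed. Per the labels and the methods of the study, the authors prepared strand-specific poly-A libraries at the same time, sequenced 100-base pairs on a HiSeq 2500, trimmed with Trim Galore!, aligned to mm10 with Tophat2 and counted per GENCODE vM2 gene with HTSeq; versions and the strand setting are not given in the sources used here. A gene was kept by the authors if it exceeded 1 CPM in 2 or more samples, and edgeR normalization and voom followed. The deposited values are log2 CPM, and under the voom formula every value gave a whole number of reads to within 2.91e-08 of a read, which supplied the reads, CPM and depths printed here.

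Changes were tested on the deposited values with limma (version 3.58.1, under R 4.3.3; lmFit, eBayes with trend, a factor of 21 time points over all 42 libraries) without a replicate block. P-values were adjusted by Benjamini-Hochberg over 14296 genes within each contrast, and the threshold was adjusted p < 0.0001. Since 2 libraries stand for each time point, a single fit shared 1 estimate of the spread, and p-values measure the spread between these duplicates. The script was tested on simulated data. Gene models came from GENCODE vM21 on GRCm38, to which 14177 genes matched by identifier. Counting intervals compare summed reads of the 2 libraries at 95% confidence.

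The letters A and B were checked for pairing. The differences B minus A correlated between time points at a mean of 0.0795, from -0.47 to 0.60. Of 210 pairs of time points, 99 were above 0.1, so some shared deviations and a pairing by letter was not settled. The main fit left the letters out. With the replicate block 936 genes rose and 731 fell from 48 h to 72 h, against 801 and 540 without it. No duplicates agreed within sampling noise (lowest chi-square per degree of freedom 6.91). The members and the lists (streak signals, nascent mesoderm factors, endoderm and node genes, T-box family, homeobox relatives, and 5 marker lists) were chosen with earlier results of these data known. The text names all members, the called list genes (of which up to 5 per list were named by the largest change over the third or the fourth day in the same direction in both replicates, and those called only from 48 h to 102 h after their values were seen), the 10 genes most correlated with the mean of the members and 1 for each member, apart from items that are not reported here. Tables and plots used pandas 2.3.3, scipy 1.17.1, numpy 2.4.6 and matplotlib 3.10.9 under Python 3.11.15. The alternatives were no trend, a replicate block, voom weights, other scalings, log2(CPM + 1), a filter on low values, another correction or threshold, and 14 libraries left out in turn. These 14 were the libraries of 0, 6, 24, 48, 72, 96 and 120 h, and no other library was left out.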

Additional observations from a re-analysis of the deposited data

How the results depend on the processing

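The number of members past adjusted p < 0.0001 in limma depended on several settings, and the cause was not tested beyond what each setting changes. Shares of all genes with voom weights, other scalings or a library left out are not given here. Those counts therefore describe the members only. Libraries were left out only at 0, 6, 24, 48, 72, 96 and 120 h, so the 6-hourly steps were covered only in part. For 48 h to 72 h the count of 2 became 1 without the trend, 0 with voom weights, 1 with log2(CPM + 1), 1 with genes of a mean of at least 0 log2 CPM, which removes Evx1 from the test, 3 with library size alone, as Eomes passed, and 4 at adjusted p < 0.05; with a library left out it ran from 1 to 3, being 3 without either library of 96 h. For 72 h to 96 h the count of 1 became 4 with log2(CPM + 1), 6 at adjusted p < 0.05 and 0 with 102 h in place of 96 h, and ran from 0 to 3 with a library left out, being 0 without 96 h replicate B or either library of 72 h and 3 without 96 h replicate A. For 96 h to 120 h the count of 0 became 1 with log2(CPM + 1), 3 at adjusted p < 0.05 and 0 to 3 with a library left out, the 3 without 96 h replicate A. For 0 h to 6 h the count of 2 became 0 with voom weights, 1 with log2(CPM + 1), 0 with the filter, which removes Evx1 and Evx1os, and 0 to 2 with a library left out. For 6 h to 24 h the count of 0 became 1 with log2(CPM + 1) and 2 at adjusted p < 0.05.

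Over all 6-hourly steps the count of 2 became 0 with voom weights or the filter, 1 with log2(CPM + 1), 5 at adjusted p < 0.05, 1 with p-values adjusted over all steps together and 0 to 6 with a library left out. The 6 came without 96 h replicate A. With the replicate block the count for 6 h to 24 h became 1, as Evx1 passed at adjusted p = 3.4e-05 in limma, and the block changed the call of no other member and no other count. The estimate for Eomes from 72 h to 96 h reversed to -0.36 without 96 h replicate B and was 1.86 without 96 h replicate A. Changes of single members below the threshold also turned in sign, none of them past it after turning. With library size alone Eomes was at -0.0118 from 0 h to 24 h, -0.00905 from 24 h to 48 h and -0.0762 from 0 h to 6 h. Gsc from 0 h to 24 h was at -0.158 with library size alone, -0.00547 with voom weights and -0.0138 with log2(CPM + 1). With each of the 14 libraries left out in turn, T ran from -0.81 to 0.21 from 0 h to 24 h, from -0.0107 to 1.02 from 24 h to 48 h and from -0.0101 to 1.02 from 6 h to 24 h. Eomes ran from -0.0397 to 0.0884 from 24 h to 48 h and from -0.0597 to 0.0756 from 6 h to 24 h. Gsc ran from -1.17 to 1.18 from 0 h to 24 h, from -0.51 to 1.31 from 48 h to 72 h, from -1.41 to 0.94 from 0 h to 6 h and from -0.21 to 0.69 from 6 h to 24 h. Lhx1 ran from -2.02 to 0.77 from 24 h to 48 h and from -0.39 to 0.50 from 6 h to 24 h, and Evx1os from -2.11 to 0.28 from 96 h to 120 h, the higher value without 96 h replicate B. The rise times, averaged over replicates A and B, had a median over the members of 87.6 h at 50% of the peak. It was 81.5 h at 25% and 94.0 h at 75%, and 86.0 h at 50% without 96 h replicate B. The order of the members after Eomes in replicate A turned at both other shares. Depth limits Evx1, Evx1os, Gsc and Lhx1 before 54 h, where most libraries held fewer than 10 reads. It also limits Evx1os, Gsc and Lhx1 from 54 h to 78 h, where their median reads per library were 6, 8 and 5.5, against 26 for Evx1.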
